A study of Mus musculus with 15 samples.

Results

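Matrix metalloproteinases (MMPs) are zinc-dependent enzymes that cut collagens, elastin, proteoglycans and many cell surface proteins. Most are secreted as inactive precursors, some are anchored in the cell membrane, and tissue inhibitors of metalloproteinases (TIMPs) bind and block the active enzymes. In pancreatic ductal adenocarcinoma they are made by tumor epithelium, fibroblasts and infiltrating myeloid cells, and several MMP genes have promoters that respond to AP-1 transcription factors, which act downstream of the MEK and ERK kinases.

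The genes described here are Mmp7 with 8 further MMP genes (Mmp2, Mmp3, Mmp9, Mmp10, Mmp11, Mmp12, Mmp13 and Mmp14) and the inhibitor gene Timp1, 10 of the 18193 genes that had a probe set with exactly 1 symbol. Mmp7 was chosen by its measured rise in tumors given both agents over control tumors. The other 9 were listed as its relatives with earlier results of these data known, as were the further gene lists below. Their tests and counts are therefore not independent of that choice. Each gene was read from its single-symbol probe set with the highest 15-array mean, and these means lay between the 73.3rd percentile (Mmp7) and the 97.1st (Mmp13) of all probe sets. Because Mmp7 was selected on that difference, its values are a description without a test, except between the single-agent groups, which share no array with that contrast.

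All arrays were of whole subcutaneous tumors grown from PDA30364, 1 cell line established from a pancreatic tumor of a genetically engineered mouse in which Cre was under an elastase-driven tetracycline system. C57BL/6-Ly5.1 mice, 6 to 12 weeks old, received the cells with Matrigel in the flank and were analysed on day 26. Control mice (Ctrl, n = 4) had vehicle and control IgG, CD40 mice (n = 4) had vehicle and an agonist antibody (Ab) to the immune receptor CD40, MEKi mice (n = 3) had the MEK inhibitor GDC-0623 at 30 mg/kg daily with control IgG, and MEKi+CD40 mice (n = 4) had GDC-0623 and the CD40 Ab. Treatment lasted about 2 weeks, with antibody on treatment days 3, 5 and 7 and 1 day before analysis. The labels speak of 4 to 5 mice per group, and the MEKi group has 3 arrays.

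Each tumor was measured on 1 array, and signals are log2 values on which levels of different genes cannot be compared. Array medians lay between 5.16 and 5.24. Epithelial marker genes, which the tumor label calls for, had a mean log2 signal of 8.77 to 9.93 in every array. The animal numbers in the sample titles fall under 10000 or from 10000 on, and all MEKi+CD40 tumors carried low numbers (the lower series) while all MEKi tumors carried high ones (the upper series), so that between these groups treatment and series cannot be told apart. Ctrl tumors were split 3 and 1, and CD40 tumors 2 and 2. In whole tumors, fewer cells of a type and less RNA per cell cannot be told apart.

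Mmp13, Mmp12, Mmp3, Mmp10 and Mmp7 lie in this order in an MMP cluster on chromosome 9, in which Mmp1b, Mmp1a, Mmp8, Mmp27 and Mmp20 lie between them. The other members are on other chromosomes. The stretches before the annotated starts of the 5 clustered members are shown because each holds a match to the AP-1 motif TGAGTCA on either strand, which is in capitals (RefSeq, GRCm38.p6, plus strand, 5′ to 3′, ending at the base before the start, and for Mmp12, around the match before its second annotated start).
Mmp13, chr9:7272414-7272513: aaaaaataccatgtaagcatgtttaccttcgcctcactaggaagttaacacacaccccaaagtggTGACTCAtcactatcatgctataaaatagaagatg
Mmp12, chr9:7347319-7347348: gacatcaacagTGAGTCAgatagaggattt
Mmp3, chr9:7445722-7445821: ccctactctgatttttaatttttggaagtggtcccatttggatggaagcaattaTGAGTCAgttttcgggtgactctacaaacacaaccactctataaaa
Mmp10, chr9:7502242-7502341: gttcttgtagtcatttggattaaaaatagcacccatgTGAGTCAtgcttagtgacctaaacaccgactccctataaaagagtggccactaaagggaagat
Mmp7, chr9:7691990-7692089: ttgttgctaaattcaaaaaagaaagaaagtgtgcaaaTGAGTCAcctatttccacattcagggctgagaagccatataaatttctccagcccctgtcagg

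The first base of the match lay 35 bases before the start in Mmp13, 44 in Mmp12, 46 in Mmp3 and 63 in both Mmp10 and Mmp7. Of 32851 RefSeq windows of the same length, 300 bases with 250 before the start, 5.2% held TGAGTCA on either strand. The windows of Mmp11, Mmp14 and Timp1 held none, nor did the other annotated start of Mmp7 or of Mmp12. The ETS core AGGAAG, present in 35.4% of all windows on either strand, was found in 6 of the 8 members with a window (Mmp3, Mmp7, Mmp12, Mmp13, Mmp14 and Timp1). Promoter windows of Mmp2 and Mmp9 were not analysed here. A match is a description of the letters and does not show binding.

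Mmp7 encodes matrilysin, a small secreted MMP made mainly by epithelial and gland cells. Its log2 signal was 5.68, 5.84, 5.54 and 6.18 in the 4 Ctrl tumors, 6.28, 8.12, 6.37 and 6.38 in the CD40 tumors, 7.48, 6.79 and 7.65 in the MEKi tumors and 9.66, 9.98, 10.17 and 9.63 in the MEKi+CD40 tumors. Every treated tumor was above every Ctrl tumor, and every MEKi+CD40 tumor was above all others. The group means followed the order Ctrl, CD40, MEKi and MEKi+CD40, and CD40 and MEKi overlapped. Within its array, Mmp7 stood at the 54.5th to 60.9th percentile of all probe sets in Ctrl tumors and at the 91.9th to 94.6th in MEKi+CD40 tumors.

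The log2 fold change (FC) of Mmp7 against Ctrl was 4.05 ± 0.16 (standard error) in MEKi+CD40, 1.50 ± 0.22 in MEKi and 0.98 ± 0.37 in CD40 tumors, or 16.6, 2.82 and 1.97-fold. Without CD40 replicate 2, the tumor at 8.12, the CD40 value was 0.53. Within the lower animal series it was 4.17 for MEKi+CD40, and within the upper series 1.13 for MEKi, against 1 Ctrl tumor. For CD40 tumors the lower series gave 1.51 and the upper series 0.20. MEKi+CD40 tumors exceeded MEKi tumors by 2.55 ± 0.22 and CD40 tumors by 3.07 ± 0.37. The interaction, the difference of MEKi+CD40 from MEKi minus that of CD40 from Ctrl, was 1.58 ± 0.50. It includes CD40 replicate 2, and in its MEKi+CD40 and MEKi tumors treatment and series cannot be told apart. The single-agent groups, the one contrast in which Mmp7 was tested, differed by 0.52 ± 0.45 (MEKi higher, adjusted p = 0.528), and without CD40 replicate 2 by 0.96 (adjusted p = 0.0547).

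**Figure D1:**
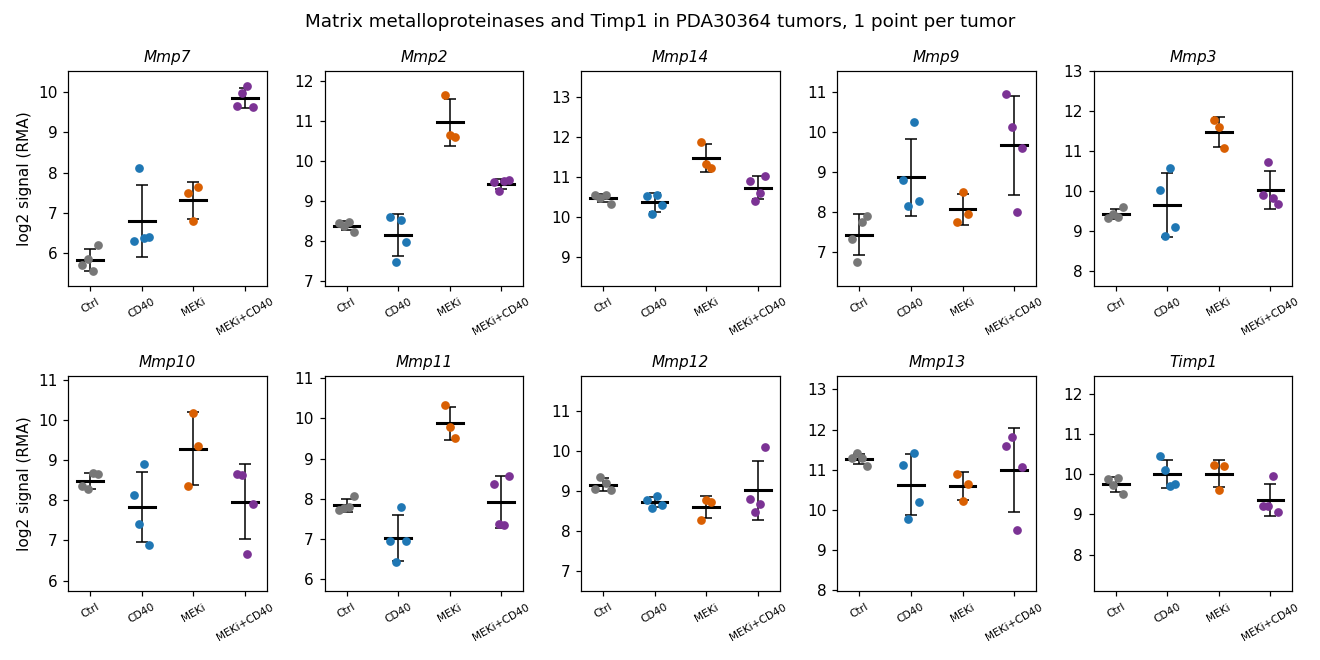
Log2 RMA signal of the 10 genes in each of the 15 tumors, by group, with points for tumors and horizontal lines and bars for mean and SD (every vertical axis spans the same range on the log2 scale). MEKi+CD40 tumors stand apart for Mmp7, with the lowest at 9.63, while MEKi tumors stand apart for Mmp2, Mmp3, Mmp11 and Mmp14.

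The gelatinases Mmp2 and Mmp9 degrade denatured collagen and basement membrane collagen, and both rose in MEKi+CD40 over Ctrl tumors. Mmp2, made mainly by fibroblasts, was 8.44, 8.36, 8.48 and 8.23 in Ctrl tumors and 9.46, 9.24, 9.49 and 9.51 in MEKi+CD40 tumors, with no overlap. Its log2 FC was 1.05 ± 0.08 (adjusted p = 0.000149), and 1.00 within the lower series. In MEKi tumors it was still higher, at 11.64, 10.65 and 10.60, a log2 FC of 2.59 ± 0.24 (adjusted p = 0.000471) and of 2.73 against the 1 Ctrl tumor of the upper series. In CD40 tumors it was 8.59, 7.48, 8.52 and 7.97, around the Ctrl level (log2 FC -0.24 ± 0.21, adjusted p = 0.790). Mmp2 therefore followed the order CD40 and Ctrl, which overlapped, then MEKi+CD40, then MEKi, and it was lower in MEKi+CD40 than in MEKi tumors by a log2 FC of -1.54 ± 0.24 (adjusted p = 0.0190). That call was lost without MEKi+CD40 replicate 1, 2, 3 or 4 (adjusted p = 0.0531 to 0.0676).

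Mmp9, made largely by neutrophils and macrophages, was 7.34, 6.75, 7.76 and 7.91 in Ctrl tumors and 10.94, 10.13, 8.00 and 9.61 in MEKi+CD40 tumors. All MEKi+CD40 tumors were above all Ctrl tumors, replicate 3 only just. The log2 FC was 2.23 ± 0.54 (adjusted p = 0.0230), and 2.39 within the lower series. The call was lost without Ctrl replicate 1 (adjusted p = 0.0634), Ctrl replicate 2 (0.0643) or MEKi+CD40 replicate 2 (0.0609). CD40 tumors, at 8.81, 8.15, 10.25 and 8.29, were also all above Ctrl tumors, but the log2 FC of 1.44 ± 0.43 did not pass the test (adjusted p = 0.237), and was 1.20 and 1.36 within the lower and upper series. In MEKi tumors Mmp9 was 7.75, 8.50 and 7.96, which overlapped the Ctrl values (0.63 ± 0.29, adjusted p = 0.183). MEKi+CD40 exceeded MEKi by 1.60 ± 0.60 (adjusted p = 0.220), and without MEKi+CD40 replicate 3 by 2.16 (adjusted p = 0.0418).

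Mmp14 encodes the membrane-anchored MMP that activates the Mmp2 precursor. It was 10.57, 10.49, 10.56 and 10.34 in Ctrl, 10.54, 10.08, 10.56 and 10.31 in CD40, 11.87, 11.34 and 11.23 in MEKi and 10.92, 10.42, 10.60 and 11.03 in MEKi+CD40 tumors. The MEKi tumors were above all others, with a log2 FC of 0.99 ± 0.15 against Ctrl (adjusted p = 0.00426) and of 1.14 against the Ctrl tumor of the upper series. The difference of MEKi+CD40 from Ctrl, 0.25 ± 0.13, did not pass the test (adjusted p = 0.237). All 4 MEKi+CD40 tumors were below all MEKi tumors (-0.74 ± 0.20, adjusted p = 0.0990). Mmp2, Mmp9 and Mmp14 had 2, 2 and 3 probe sets, and in MEKi+CD40 against Ctrl and MEKi against Ctrl the probe sets of a gene had the same direction and the same side of the threshold.

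Fibroblast markers moved with Mmp2 and Mmp14. The mean log2 signal of 12 of 12 listed fibroblast markers was 9.52 to 9.78 in Ctrl, 9.12 to 10.11 in CD40, 10.93 to 11.81 in MEKi and 10.04 to 10.47 in MEKi+CD40 tumors. Of these 12, 10 rose in MEKi and 4 in MEKi+CD40 over Ctrl, where 7.52% and 7.09% of all probe sets rose. RMA signals are never 0, so an absent marker cannot be read from them. Over the 15 tumors, after subtraction of group means, the correlation with the fibroblast list was 0.92 for Mmp2 and 0.72 for Mmp14. That of Mmp2 with Mmp14 was 0.85. Without MEKi replicate 1 these 3 correlations were 0.87, 0.57 and 0.75 in the same order. For Mmp3 and Mmp11, which also rose in MEKi tumors, the correlation with the fibroblast list was 0.40 and 0.33. The correlation of Mmp7 with the epithelial list was 0.32, and -0.05 without CD40 replicate 2, the tumor with Mmp7 at 8.12. With the lists of macrophage and T cell markers it was 0.17 and 0.10, and 0.63 and 0.62 without that tumor. Each point sets 2 readings of the same array side by side, so the correlations are a description. The part of fibroblast, epithelial, macrophage or T cell content in the differences was not tested.

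**Figure D2:**
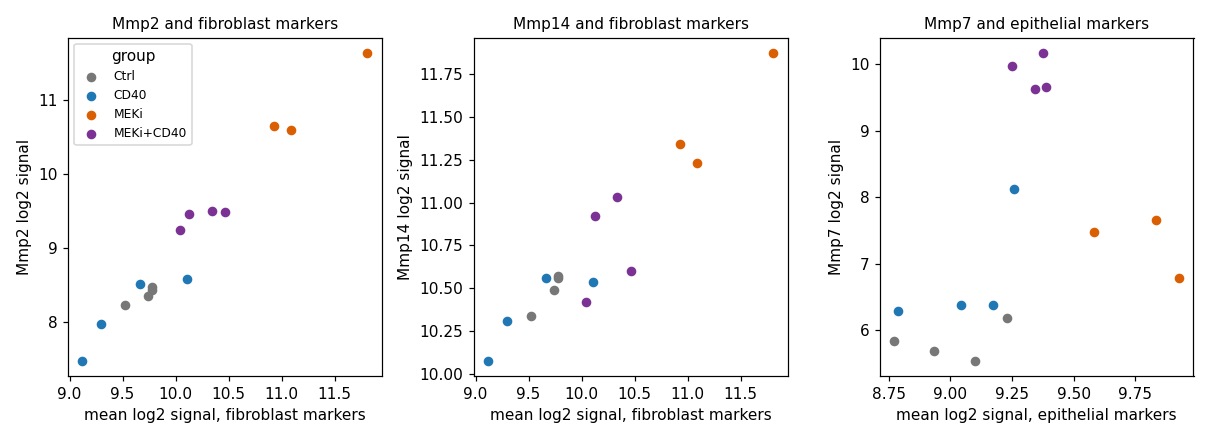
Log2 signal of Mmp2 and Mmp14 against the mean log2 signal of 12 fibroblast markers, and of Mmp7 against 12 epithelial tumor cell markers, 1 point per tumor and 1 color per group. The MEKi tumors are highest on both axes for Mmp2 and Mmp14, while the 4 MEKi+CD40 tumors lie at 9.63 to 10.17 for Mmp7 at epithelial marker levels (9.25 to 9.39) that lie below those of the MEKi tumors.

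Mmp3 and Mmp10 encode stromelysins, which cut proteoglycans and laminin and activate other MMP precursors. Mmp3 was 9.32, 9.43, 9.35 and 9.59 in Ctrl, 10.03, 8.87, 10.58 and 9.11 in CD40, 11.76, 11.59 and 11.06 in MEKi and 9.89, 10.72, 9.82 and 9.68 in MEKi+CD40 tumors. MEKi tumors were above all others, with a log2 FC of 2.05 ± 0.16 against Ctrl (adjusted p = 0.000268) and of 1.88 against the Ctrl tumor of the upper series. MEKi+CD40 tumors were all above Ctrl tumors, but the log2 FC of 0.61 ± 0.20 did not pass the test (adjusted p = 0.0740). Without MEKi+CD40 replicate 2 it was 0.37, with an adjusted p of 0.0297. Mmp3 was lower in MEKi+CD40 than in MEKi tumors (-1.44 ± 0.27, adjusted p = 0.0328). That call was lost without any 1 of MEKi replicates 1, 2 and 3 or of MEKi+CD40 replicates 1, 3 and 4 (adjusted p = 0.0551 to 0.0895).

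Mmp10 varied more within groups. It was 8.36, 8.28, 8.68 and 8.65 in Ctrl, 8.14, 7.40, 8.90 and 6.89 in CD40, 8.35, 10.17 and 9.36 in MEKi and 8.67, 8.64, 6.67 and 7.91 in MEKi+CD40 tumors. No group was separate from Ctrl, and the log2 FC was 0.80 ± 0.36 in MEKi (adjusted p = 0.178), -0.52 ± 0.38 in MEKi+CD40 (0.417) and -0.66 ± 0.36 in CD40 tumors (0.593). Without MEKi replicate 1, the MEKi value was 1.27 with an adjusted p of 0.00648. After subtraction of group means, Mmp10 varied with Mmp9 (correlation 0.88) and Mmp13 (0.67), and Mmp9 with Mmp13 (0.76), over 15 tumors. In MEKi+CD40 replicate 3, Mmp9, Mmp10 and Mmp13 were each the lowest of the group, and without this tumor the 3 correlations were 0.81, 0.43 and 0.53 in the same order.

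Mmp11, a stromelysin-like MMP typical of fibroblasts around carcinomas, rose in MEKi tumors over Ctrl. It was 7.71, 7.77, 7.78 and 8.07 in Ctrl, 6.93, 6.42, 7.79 and 6.93 in CD40, 10.33, 9.80 and 9.51 in MEKi and 8.37, 7.37, 7.35 and 8.57 in MEKi+CD40 tumors. MEKi tumors were separate from all others, with a log2 FC of 2.05 ± 0.18 against Ctrl (adjusted p = 0.000449) and 1.81 against the upper series Ctrl tumor, while MEKi+CD40 tumors overlapped Ctrl (0.08 ± 0.27, adjusted p = 0.872). MEKi+CD40 was lower than MEKi by a log2 FC of -1.97 ± 0.35 (adjusted p = 0.0281). That call was lost without MEKi replicate 2 or 3 or MEKi+CD40 replicate 2 or 3 (adjusted p = 0.0623 to 0.0813). In CD40 tumors the log2 FC was -0.82 ± 0.24 (adjusted p = 0.221), and without CD40 replicate 3 it was -1.07 (adjusted p = 0.0296).

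Mmp12, the macrophage elastase, was 9.05, 9.35, 9.20 and 9.01 in Ctrl, 8.77, 8.58, 8.87 and 8.65 in CD40, 8.27, 8.78 and 8.72 in MEKi and 8.80, 8.48, 8.68 and 10.09 in MEKi+CD40 tumors. Every CD40 and every MEKi tumor was below every Ctrl tumor. The fall passed the test in MEKi (-0.56 ± 0.14, adjusted p = 0.0313, and -0.42 against the upper series Ctrl tumor) but not in CD40 tumors (-0.44 ± 0.09, adjusted p = 0.0868). The MEKi call was lost without Ctrl replicate 1, 2 or 3 or MEKi replicate 3 (adjusted p = 0.0533 to 0.0825), and in the fit of all 15 arrays (0.174). In MEKi+CD40 tumors the log2 FC was -0.14 ± 0.30 (adjusted p = 0.801), and without replicate 4 it was -0.50 (adjusted p = 0.0194). Markers of macrophages, the usual source, had a mean log2 signal of 9.06 to 9.35 in Ctrl and 9.60 to 9.85 in CD40 tumors. It was 8.96 to 10.20 in MEKi and 9.69 to 10.36 in MEKi+CD40 tumors. Of these 12 markers, 6, 1 and 10 rose over Ctrl in CD40, MEKi and MEKi+CD40 tumors. Of all probe sets, 0.659%, 7.52% and 7.09% rose in these comparisons. After subtraction of group means, the correlation of Mmp12 with the macrophage list over 15 tumors was -0.63. The part of macrophage content in the Mmp12 values was not tested.

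Mmp13, an interstitial collagenase, was 11.29, 11.41, 11.28 and 11.09 in Ctrl, 11.12, 9.77, 11.41 and 10.20 in CD40, 10.89, 10.21 and 10.65 in MEKi and 11.60, 11.81, 9.49 and 11.06 in MEKi+CD40 tumors. MEKi tumors were all below Ctrl tumors (-0.68 ± 0.16, adjusted p = 0.0219, and -0.51 against the upper series Ctrl tumor). This call was lost without Ctrl replicate 1, 2 or 3 or MEKi replicate 3 (adjusted p = 0.0548 to 0.0645), and in the fit of all 15 arrays (0.335). CD40 and MEKi+CD40 tumors overlapped Ctrl, with log2 FC of -0.64 ± 0.31 (adjusted p = 0.539) and -0.28 ± 0.42 (0.713).

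Timp1, which inhibits most secreted MMPs, was 9.88, 9.73, 9.90 and 9.50 in Ctrl, 10.47, 10.11, 9.72 and 9.75 in CD40, 10.23, 9.62 and 10.21 in MEKi and 9.22, 9.22, 9.95 and 9.07 in MEKi+CD40 tumors. It was called in none of the 6 pairwise comparisons. Of the MEKi+CD40 tumors, 3 were below all Ctrl tumors and replicate 3 was above them, giving a log2 FC of -0.39 ± 0.18 (adjusted p = 0.194). Without replicate 3 it was -0.58 (adjusted p = 0.00866), and against CD40 tumors -0.84 (adjusted p = 0.0363). Without MEKi replicate 2, MEKi exceeded Ctrl by 0.47 (adjusted p = 0.0469).

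**Figure D3:**
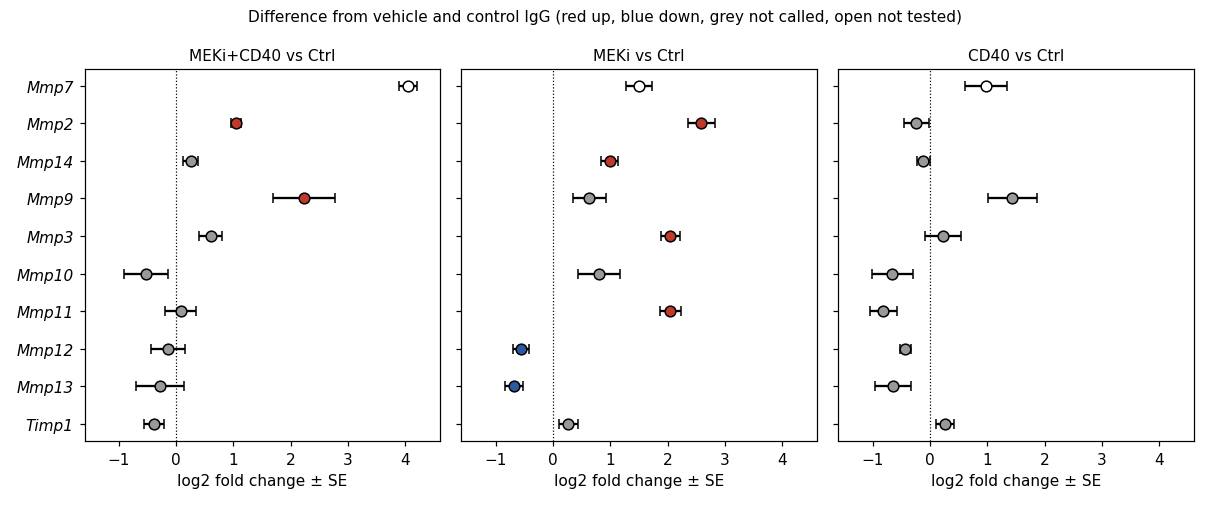
Log2 fold change against Ctrl of the 10 genes in MEKi+CD40, MEKi and CD40 tumors, with the standard error of the limma fit as bars and the test call as the fill (red up, blue down, grey not called, open not tested). Mmp2, Mmp3, Mmp11 and Mmp14 rose and Mmp12 and Mmp13 fell in MEKi tumors, and Mmp2 and Mmp9 rose in MEKi+CD40 tumors.

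Counted over the 9 members other than Mmp7, 2 rose, none fell and 7 did not pass in MEKi+CD40 against Ctrl, where 7.09% of all 45037 probe sets rose and 7.23% fell. After median centring of the arrays, 2854 probe sets rose and 4759 fell in place of 3192 and 3258. In MEKi against Ctrl, 4 rose, 2 fell and 3 did not pass, against 7.52% and 8.38% of all probe sets. Against the 1 Ctrl tumor of the upper series none of the 6 passed (adjusted p = 0.266 to 0.651), and with the series as a covariate 3 did (Mmp2, Mmp3 and Mmp11). In CD40 against Ctrl none passed in limma, with 3 at an unadjusted p under 0.05, and 0.659% and 0.0577% of all probe sets rose and fell, so that a count of 0 of 9 is near the background. The medians over the 9 members were 0.08, 0.80 and -0.24 in these comparisons, and -0.04, -0.05 and -0.01 over all probe sets. The background includes dim probe sets, which the members do not. The 9 members were also chosen with earlier results of these data known.

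In MEKi+CD40 against MEKi, Mmp2, Mmp3 and Mmp11 fell and 6 did not pass, where 1.01% of all probe sets rose and 1.79% fell. In MEKi+CD40 against CD40, Mmp2 rose (1.29 ± 0.22, adjusted p = 0.0147) and 8 did not pass, where 2.54% rose and 1.94% fell (after median centring, 1036 rose and 1248 fell in place of 1144 and 875). Within the lower series Mmp2 was 1.39 higher (adjusted p = 0.0536). In MEKi against CD40, 4 rose and 5 did not pass, where 4.79% rose and 4.31% fell. The 4 were Mmp2 (2.82 ± 0.33, adjusted p = 0.00291), Mmp3 (1.82 ± 0.40, 0.0291), Mmp11 (2.86 ± 0.31, 0.00210) and Mmp14 (1.11 ± 0.18, 0.00965). Within the upper series their differences were 2.72, 1.63, 2.52 and 1.05, and the call of Mmp3 was lost without CD40 replicate 1, 2 or 4 or any 1 MEKi replicate (adjusted p = 0.0508 to 0.0763).

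The interaction was called for none of the 9 members in limma, with 6 at an unadjusted p under 0.05 and 3.2% of all probe sets called in either direction. The lowest adjusted p was that of Mmp2 (-1.30 ± 0.35, adjusted p = 0.0585), followed by Mmp3 (-1.67 ± 0.47, 0.0701) and Timp1 (-0.92 ± 0.31, 0.126). Without CD40 replicate 2, Mmp2 (-1.52, adjusted p = 0.0209) and Mmp3 (-1.93, 0.0335) passed. Mmp2 also passed without MEKi replicate 2 (0.0411), Mmp3 without MEKi+CD40 replicate 2 (0.0465) and Timp1 without MEKi+CD40 replicate 3 (0.0427). That the effect of the CD40 Ab on these genes differed with and without MEKi was thus not shown by the test. The interaction also contains the difference of MEKi+CD40 from MEKi, in which treatment and animal series cannot be told apart.

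Of the rest of the MMP family, 9 of 14 listed genes were measured. Mmp23, a membrane MMP, rose in MEKi+CD40 (log2 FC 1.07 ± 0.09, adjusted p = 0.000201) and MEKi tumors (2.37 ± 0.28, adjusted p = 0.00160) over Ctrl, and Mmp8, the neutrophil collagenase, rose in MEKi tumors (0.75 ± 0.13, adjusted p = 0.00741). The median over the 9 was 0.11 in MEKi+CD40 and 0.22 in MEKi tumors, against -0.04 and -0.05 over all probe sets. Markers of granulocytes, cells that store Mmp8 and Mmp9, had a mean log2 signal over 10 of 12 listed genes of 5.55 to 5.90 in Ctrl, 5.79 to 6.21 in CD40, 6.91 to 7.28 in MEKi and 6.22 to 6.72 in MEKi+CD40 tumors. Of these 10, 5 rose in MEKi and 6 in MEKi+CD40 over Ctrl and none fell. Of all probe sets, 7.52% and 7.09% rose and 8.38% and 7.23% fell. The list did not move as 1 in MEKi tumors. The log2 FC was 2.71 for S100a8 and 3.41 for Lcn2, but 0.02 for Mpo, -0.07 for Camp and -0.03 for Ngp. After subtraction of group means, the correlation of Mmp9 was 0.09 with the granulocyte list and -0.08 with the macrophage list. The part of granulocytes in the MMP values was not tested.

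Among 6 of 6 measured MMP inhibitors other than Timp1, 4 rose and none fell in MEKi+CD40, and 3 rose and none fell in MEKi tumors (all probe sets, 7.09% up and 7.23% down in MEKi+CD40, 7.52% and 8.38% in MEKi tumors). A2m, which encodes the broad protease trap alpha-2-macroglobulin, rose in MEKi+CD40 (1.93 ± 0.21, adjusted p = 0.000620). Timp3, the inhibitor that stays bound to the matrix, rose in MEKi+CD40 (1.64 ± 0.18, adjusted p = 0.000572) and in MEKi tumors (1.81 ± 0.40, adjusted p = 0.0188), the latter call being lost without Ctrl replicate 1, 3 or 4 (adjusted p = 0.0515 to 0.0553). Pzp, a relative of A2m, rose in MEKi tumors (2.32 ± 0.10, adjusted p = 4.09e-05) and in MEKi+CD40 tumors (0.90 ± 0.13, adjusted p = 0.00173). The median log2 FC of the list was 0.87 in MEKi+CD40 and 0.95 in MEKi tumors.

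The plasminogen system and other activators of MMP precursors had 10 of 12 genes measured, with 0 up and 1 down in MEKi+CD40 and 3 up and 1 down in MEKi tumors. Of all probe sets, 7.09% rose and 7.23% fell in MEKi+CD40 and 7.52% and 8.38% in MEKi tumors, so that the MEKi+CD40 count is near the background. St14, which encodes the epithelial membrane protease matriptase, rose in MEKi tumors (1.61 ± 0.16, adjusted p = 0.000828). It did not pass in MEKi+CD40 tumors (0.22 ± 0.14, adjusted p = 0.338), where it was lower than in MEKi tumors (-1.39 ± 0.15, 0.00462). The skin markers described below were also highest in MEKi tumors. Plaur, the urokinase receptor, rose in MEKi (0.59 ± 0.09, adjusted p = 0.00405) and fell in MEKi+CD40 tumors (-0.27 ± 0.07, adjusted p = 0.0418), and the fall was lost without Ctrl replicate 1, 3 or 4 or MEKi+CD40 replicate 1, 2 or 3 (adjusted p = 0.0649 to 0.105). Ctsg, a granule protease of neutrophils and mast cells, fell in MEKi tumors (-0.34 ± 0.08, adjusted p = 0.0313), a call lost without Ctrl replicate 1, 2 or 3 or MEKi replicate 2 or 3 (adjusted p = 0.0648 to 0.0859). The list medians were -0.13 in MEKi+CD40 and -0.03 in MEKi tumors.

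Of 11 measured ADAM and ADAMTS genes, whose products shed cell surface proteins or cut proteoglycans, 5 rose in MEKi+CD40 and 6 in MEKi tumors and none fell, where 7.09% and 7.52% of all probe sets rose. Adam19 (1.08 ± 0.12, adjusted p = 0.000624) and Adam12 (1.00 ± 0.19, 0.00780) rose most in MEKi+CD40, and Adam12 (2.37 ± 0.21, 0.000421) and Adamts5 (1.84 ± 0.30, 0.00537) in MEKi tumors. Adam19 also rose in MEKi tumors (1.28 ± 0.27, adjusted p = 0.0154). Of 14 measured matrix substrate genes, 6 rose in MEKi+CD40 and 7 in MEKi tumors and none fell. Of all probe sets, 7.09% rose and 7.23% fell in MEKi+CD40, and 7.52% and 8.38% in MEKi tumors. That none fell in the ADAM or the matrix list is thus near the background. Eln, elastin, rose by 1.11 ± 0.16 (adjusted p = 0.00215) and Col1a1, a chain of collagen I, by 0.81 ± 0.14 (0.00545) in MEKi+CD40 tumors. The proteoglycan gene Dcn rose by 2.70 ± 0.22 (adjusted p = 0.000310) and Col1a1 by 1.81 ± 0.19 (0.000846) in MEKi tumors. Col1a1 and Dcn are also fibroblast markers. The median log2 FC was 0.28 in MEKi+CD40 and 0.38 in MEKi tumors for the ADAM list and 0.40 and 0.75 for the matrix list.

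Of 11 cell surface substrates and partners, 3 rose and 2 fell in MEKi+CD40, and 2 rose and 2 fell in MEKi tumors (all probe sets, 7.09% up and 7.23% down in MEKi+CD40, 7.52% and 8.38% in MEKi tumors). Lrp1, a receptor that clears MMPs, rose by 0.72 ± 0.14 (adjusted p = 0.00947) and by 0.89 ± 0.18 (0.0141), and the integrin gene Itgav by 0.60 ± 0.07 (0.000810) and 0.53 ± 0.07 (0.00319). Cd44, a hyaluronan receptor that holds MMPs at the cell surface, fell by 0.33 ± 0.06 (adjusted p = 0.00487) and 0.31 ± 0.07 (0.0274), the MEKi call being lost without any 1 Ctrl replicate or MEKi replicate 2 or 3 (adjusted p = 0.0531 to 0.0795). Hbegf, a growth factor released by MMPs, fell by 0.40 ± 0.08 (0.00878) in MEKi+CD40, and the tetraspanin gene Cd151 by 0.39 ± 0.08 (0.0120) in MEKi tumors. The list medians were -0.02 and 0.02.

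The factors that act on MMP promoters had 17 of 20 genes measured, with 0 up and 4 down in MEKi+CD40 and 2 up and 4 down in MEKi tumors (all probe sets, 7.09% up and 7.23% down in MEKi+CD40, 7.52% and 8.38% in MEKi tumors). Fosl1, an AP-1 subunit whose product is stabilised by ERK, fell by 1.00 ± 0.15 (adjusted p = 0.00251) and the ETS factor gene Etv4 by 0.76 ± 0.08 (0.000479) in MEKi+CD40 tumors. In MEKi tumors the AP-1 subunit gene Fosl2 rose by 0.77 ± 0.08 (adjusted p = 0.000846) and Cebpb by 0.37 ± 0.07 (0.0135). Fosb fell there by 0.71 ± 0.19 (0.0425) and the ETS factor gene Etv5 by 0.65 ± 0.08 (0.00194), and the Fosb call was lost without Ctrl replicate 1, 3 or 4 or MEKi replicate 2 or 3 (adjusted p = 0.0620 to 0.106). Etv4 also fell in MEKi tumors (-0.56 ± 0.11, adjusted p = 0.00995). In MEKi+CD40 tumors Etv5 (-0.66 ± 0.07, adjusted p = 0.000487) and Fosb (-0.69 ± 0.17, 0.0284) fell too. The list medians were -0.01 in MEKi+CD40 and -0.18 in MEKi tumors. In CD40 against Ctrl, none of the 78 measured genes of these 7 lists passed the test, where 0.659% of all probe sets rose and 0.0577% fell, so that this count is near the background.

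The series was added as a covariate for the list genes named as up to 2 largest rises and falls per list. Adam19 and Etv4 in MEKi and Pzp, Etv5 and Fosb in MEKi+CD40 tumors were not among them. In MEKi tumors 7 of 19 kept their call (Mmp23, Pzp, St14, Adam12, Dcn, Col1a1 and Fosl2). Mmp8, Timp3, Plaur, Ctsg, Adamts5, Cd44, Itgav, Lrp1, Cd151, Fosb, Etv5 and Cebpb lost it (adjusted p = 0.0553 to 0.495). Against the 1 Ctrl tumor of the upper series none of the 19 passed, with log2 FC of 2.55 for Mmp23, 2.16 for Pzp, 2.44 for Adam12, 3.15 for Dcn and 1.87 for Col1a1. In MEKi+CD40 tumors 13 of 14 kept their call with the covariate, and Plaur lost it (adjusted p = 0.0678).

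The 5 genes most like Mmp7 across the 15 tumors, by Pearson correlation of the log2 signal, were Adgra1 (0.967), Acp5 (0.944), Denn2b (0.922), Pdgfb (0.917) and Ifngr1 (0.915). The 15 points share 4 groups and the arrays. After subtraction of group means, the correlation was 0.81 for Adgra1, 0.34 for Acp5, 0.42 for Ifngr1 and 0.10 for both Denn2b and Pdgfb. Without CD40 replicate 2, the tumor with Mmp7 at 8.12, that of Adgra1 was 0.18, that of Acp5 0.20, that of Ifngr1 0.38, that of Denn2b 0.26 and that of Pdgfb 0.08. Adgra1, which encodes an adhesion G protein-coupled receptor, was 5.11 to 5.51 in Ctrl, 5.26 to 6.78 in CD40, 5.59 to 6.09 in MEKi and 7.97 to 8.40 in MEKi+CD40 tumors.

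Markers of neighboring tissue moved with the groups. Skeletal muscle markers had a mean log2 signal over 10 genes of 4.53 to 7.41 in Ctrl, 4.57 to 6.79 in CD40, 8.02 to 10.97 in MEKi and 8.31 to 10.18 in MEKi+CD40 tumors. Skin keratinocyte markers (11 measured genes) were at 4.41 to 6.04 in Ctrl, 4.41 to 5.79 in CD40, 6.77 to 7.52 in MEKi and 4.46 to 5.14 in MEKi+CD40 tumors. Epithelial markers were at 8.77 to 9.23, 8.79 to 9.26, 9.58 to 9.93 and 9.25 to 9.39 in the same order. MEKi tumors, which had the most skin signal, were also those in which Mmp2, Mmp3, Mmp11 and Mmp14 were highest. After subtraction of group means, the correlation with the skin list was -0.05 for Mmp2, 0.37 for Mmp3, 0.42 for Mmp11 and -0.07 for Mmp14. For Mmp9 it was 0.65. Of the markers, 9 of 10 for muscle and none for skin rose in MEKi+CD40 over Ctrl, and 1 and 7 in MEKi tumors. The median log2 FC of the muscle markers was 2.68 in MEKi+CD40 and 2.455 in MEKi tumors. None of these 10 passed in MEKi+CD40 against MEKi (median 0.08). In MEKi+CD40 and MEKi tumors, 6 and 1 of 9 T cell, 2 and 1 of 10 endothelial and 0 and 0 of 6 adipocyte markers rose over Ctrl. Of the endothelial markers, 1 fell in MEKi+CD40 (Cldn5) and 2 in MEKi tumors (Cldn5 and Vwf). Of all probe sets, 7.09% rose and 7.23% fell in MEKi+CD40, and 7.52% and 8.38% in MEKi tumors. Counts of 0 or 1 are thus near the background, but markers that did not pass are not shown to be unchanged. The median log2 FC in MEKi+CD40 and MEKi tumors was 1.03 and 0.77 for T cell markers. It was 0.07 and 0.18 for endothelial and 0.76 and -0.30 for adipocyte markers. The 1 T cell marker called in MEKi tumors, Thy1, is also on the fibroblast list. The part of these tissues in the values of the MMPs and of the other listed genes was not tested.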

How the data were processed

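RNA from 15 whole tumors was measured on 1 Affymetrix mouse 3′ expression array each. The deposited log2 signals were made by the authors by robust multi-array average (RMA), which corrects background, quantile-normalizes and summarizes probes; its version and the genome build are not given in the sources used here. Of 45101 probe sets, 64 array controls were left out and 45037 tested. Symbols came from the platform annotation (34945 probe sets with 1 symbol, 932 with several, 9160 with none).

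Each pairwise contrast was a limma fit (version 3.58.1, R 4.3.3, lmFit with eBayes, both directions tested) to those 2 groups alone, and the interaction used all 15 arrays. P-values were adjusted by Benjamini-Hochberg across the tested probe sets and called under 0.05. Alternatives were a joint fit, another variance prior, normalization or centring, a filter on dim probe sets, gene means, the replicate block, the animal series and leaving out each tumor. Fits were tested on simulated data. The named list genes are up to 2 with the largest passing rise and fall per list. Members and lists were chosen with earlier results of these data known. Replicates are separate tumors of 1 cell line, and array number limits precision. Promoter sequences are from RefSeq.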

Additional observations from a re-analysis of the deposited data

Results flagged for a closer look

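Of 30 groups of 4 tumors (10 genes in Ctrl, CD40 and MEKi+CD40), 2 had a tumor far from the other 3 by Dixon's criterion, which chance flags in about 1 in 20 groups. Mmp7 in CD40 replicate 2 was 8.12, against 6.28 to 6.38 in the other CD40 tumors. Timp1 in MEKi+CD40 replicate 3 was 9.95, against 9.07 to 9.22 in the others.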

How the results depend on the processing

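No called difference of a member turned its sign under any alternative. Over the settings other than leaving out a tumor, 573 member values kept their direction and, where tested, their side of the threshold, 21 lost and 6 gained a call, and when tumors were left out 556 kept, 31 lost and 13 gained one. Numbers of members called moved as follows. An intensity trend with a robust prior gave 1 in MEKi+CD40 against Ctrl and 1 in CD40 against Ctrl. The animal series as a covariate gave 3 in MEKi against Ctrl and 2 in MEKi against CD40. Within a series the count was 0 in MEKi against Ctrl (upper, 1 Ctrl tumor), 0 in MEKi+CD40 against CD40 (lower) and 2 in MEKi against CD40 (upper). For the interaction, median centring, leaving out dim probe sets and averaging the probe sets of each gene each gave 1 (Mmp2). With tumors left out, counts ran from 1 to 3 in MEKi+CD40 against Ctrl, 4 to 7 in MEKi against Ctrl, 0 to 1 in CD40 against Ctrl, 1 to 2 in MEKi+CD40 against MEKi, 1 to 2 in MEKi+CD40 against CD40, 3 to 4 in MEKi against CD40 and 0 to 2 for the interaction. The causes were not tested.

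Replicate numbers did not pair the tumors: over 21 pairs, same-numbered deviations correlated by -0.28 to 0.21, and 9 were over 0.1. The replicate block gave 1 in MEKi+CD40 against MEKi and 1 for the interaction. It lost Mmp2 (adjusted p = 0.0933) and Mmp3 (0.111) in MEKi+CD40 against MEKi, Mmp13 (0.0708) in MEKi against Ctrl and Mmp3 (0.0928) in MEKi against CD40, and gained Mmp2 (0.0451) for the interaction. Of the named list genes it ended the calls of Timp3, Ctsg, Cd44, Cd151 and Cebpb in MEKi against Ctrl (adjusted p = 0.0540 to 0.110) and of Plaur in MEKi+CD40 against Ctrl (0.0559). Leaving out each tumor for the correlations was chosen after seeing the data. The animal series could not be fitted for MEKi+CD40 against MEKi.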
